A study of Psophocarpus tetragonolobus with 12 samples.

Results

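The region studied was a stretch of scaffold Chr05.1 around PtMYB113a, a candidate pigment regulator of winged bean (Psophocarpus tetragonolobus), a legume crop. Members were all genes of the expression table that start between 4.2 and 8.0 Mb on Chr05.1, a window of 3.8 Mb, except the 4 named pigment genes PtMYB113a, PtMYB113b, Pt5MAT1 and Pt5MAT2. The window held 269 members, of 30392 genes in the table. Position alone decides membership.

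Pods of FP15, a purple-podded line, had been sampled 15, 30, 37 and 45 days after anthesis for RNA-seq. There were 12 libraries of polyadenylated RNA, 3 per stage, from different plants kept in a growth chamber under a single temperature and daylength regime. The deposited table gives a single whole-number value per gene and stage in FPKM, the number of fragments relative to transcript length and to the mapped fragments of the library. Replicate error is therefore unknown for every value here, and no comparison of stages could be tested. The positions are those of the genome assembly of the study, which was made from the green-podded line Ma3. Pods of Ma3 were not analysed here, so all values describe the purple line alone.

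Anthocyanins are the red to purple flavonoid pigments of fruits, flowers and seed coats. In many plants an R2R3-MYB protein, a bHLH protein and a WD40 protein form a complex that switches on the late genes of the pathway, among them DFR and ANS, and the MYB partner often sets where and when colour appears. Genes that lie near a pigment regulator share its position and need not share its function.

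Expression of a gene was called at 1 FPKM or more in at least 1 stage. By this rule 213 of the 269 members (79.2%) were expressed in pods, beside 73.9% of all genes of the table. The share was 77.8% in the rest of Chr05.1 (998 of 1282 genes), 80.4% in the window of equal length before (226 of 281) and 81.5% in the window after (203 of 249). By this rule the genes around PtMYB113a were expressed about as often as those on either side. At 5 FPKM or more in a stage stood 163 members (60.6%), against 57.5% of all genes and 68.0% and 68.7% in the windows before and after. At 1 FPKM or more in every stage were 186 members (69.1%), against 63.8% of all genes and 73.3% and 73.9% in those windows. With these stricter cuts the share lay above that of the table and below that of both sides. Among expressed genes, the mean over the stages had a median of 14 FPKM in the window and 11.75 FPKM in the table. The expressed members had a median span of 2963 bp, whereas the members not expressed had one of 1867 bp. Over all genes of the table these medians were 3317 and 1815 bp, so the contrast is not particular to the window.

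The 56 members not expressed were spread unevenly along the window. In 19 bins of 0.2 Mb, the share expressed was 75 to 92.9% in the 8 bins up to 5.8 Mb and 83.3 to 94.7% in the 5 bins beyond 7.0 Mb. The bins between them had 42.9 to 72.7%. Taken as a whole, this stretch of 5.8 to 7.0 Mb had 45 of 76 members expressed (59.2%), against 168 of 193 (87.0%) in the other bins, and its limits were set after the values had been seen. The plot of shares along the window shows this dip, which lies about 0.8 to 2.0 Mb beyond PtMYB113a. The longest run of members listed at 0 in all stages was of 5 genes, Psote05G0040400 to Psote05G0040800 (Chr05.1, 5866747 to 5922312), and the next was of 4 genes, Psote05G0045400 to Psote05G0045700, over 100.7 kb. Of the 56 members, 32 lay in 11 runs of 2 or more genes. Such runs were not counted in other parts of the table, so whether this number is unusual is not known. With rounding to whole numbers, a listed 0 stands for anything under 0.5 FPKM.

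**Figure D1:**
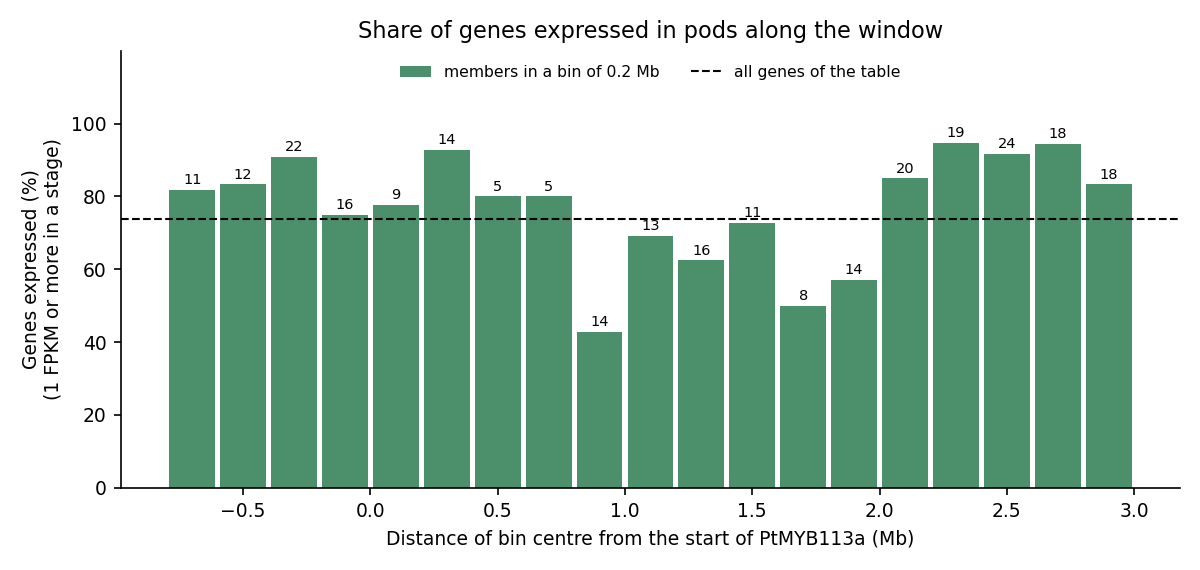
Percent of members at 1 FPKM or more in at least 1 stage (bars, bins of 0.2 Mb, number of genes above each bar) by distance from the start of PtMYB113a in Mb, with the share of all genes as a dashed line at 73.9%. The bin starting 0.80 Mb beyond PtMYB113a is the lowest at 42.9% (6 of 14 genes), and all bins beyond 2.0 Mb stand at 83.3% or more.

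Most of the abundant transcripts of the window stayed within 2-fold over pod development. Psote05G0054400 (Chr05.1, 7647315 to 7652589) stood at 363, 351, 347 and 312 FPKM at Day 15, 30, 37 and 45, and Psote05G0055000 at 156, 194, 200 and 169 FPKM. Psote05G0037100 lies 107 kb beyond PtMYB113a and stood at 215, 271, 282 and 270 FPKM. Of the 17 members that reached 100 FPKM in a stage (6.32%, against 5.83% of all genes), 13 were steady, that is, within 2-fold over the 4 stages on the FPKM + 1 scale. Steady genes made up 60.9% of all expressed genes. Their share among all genes at 100 FPKM was not counted, so this is not shown to be particular to the window. The sum over all members was 6458, 5920, 5998 and 5769 FPKM, and a single gene, Psote05G0037900, made up most of the difference between the ends. Without it the sums were 5984, 5786, 5918 and 5757 FPKM.

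To ask which members moved over pod development, Day 45 was compared with Day 15. The call was made at a difference of at least 1 in log2(FPKM + 1), which is 2-fold on that scale. On it, the change of genes with low values is understated. Fewer cells of a type and less RNA per cell cannot be told apart in whole pods. Of the 213 expressed members, 31 (14.6%) were higher at Day 45, where the background over all 22459 expressed genes was 14.3%. Lower at Day 45 were 32 (15.0%), against a background of 19.4%, and 150 were neither. When the stages were rescaled to the same upper quartile, 22 members were higher (10.3%, against 10.1% of all expressed genes) and 35 lower (16.4%, against 20.0%), so that the tilt towards lower calls was shared by the table. The median change was 0 on the log2 scale both in the window and over all genes, with quartiles of -0.58 and 0.49 in the window. Many calls rest on small numbers, as 6 of the higher members were listed at 0 at Day 15 and at 1 FPKM at Day 45 and 6 of the lower ones the reverse. With both values moved by 0.5 FPKM towards each other, 15 higher and 19 lower members were still called (background 9.32% and 11.4%). At 4-fold, 6 members were higher (background 4.54%) and 9 lower (background 6.45%).

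Each expressed gene was also put in 1 class by its course over the 4 stages. Steady members numbered 140 (65.7%, against 60.9% of all expressed genes). A decline in step, that is, 2-fold lower at Day 45 with no rise at any step, was found in 28 members (13.1%, against 16.3%). This class has the shape of PtMYB113a and was chosen with the values of that gene known. In 5 of the 28 members the decline was only to a listed 0, against a listed 1 at Day 15. Under quantile normalization 10 members were in this class (background 6.35%), or 23 when the steps were read from the listed values (background 12.4%). A rise in step was found in 27 (12.7%, against 11.0%), a mid-pod peak at Day 30 or Day 37 in 4 (1.88%, against 2.12%), a trough in 2 (0.94%, against 1.43%) and another course in 12 (5.63%, against 8.26%). All these shares are near those of the table, and the windows of equal length on either side had 65.9% and 67.5% steady genes and 12.4% and 15.8% with a decline in step. Most members had their highest value at an end of the series, 85 at Day 15 alone (39.9%, against 37.3%) and 61 at Day 45 alone (28.6%, against 25.1%).

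**Figure D2:**
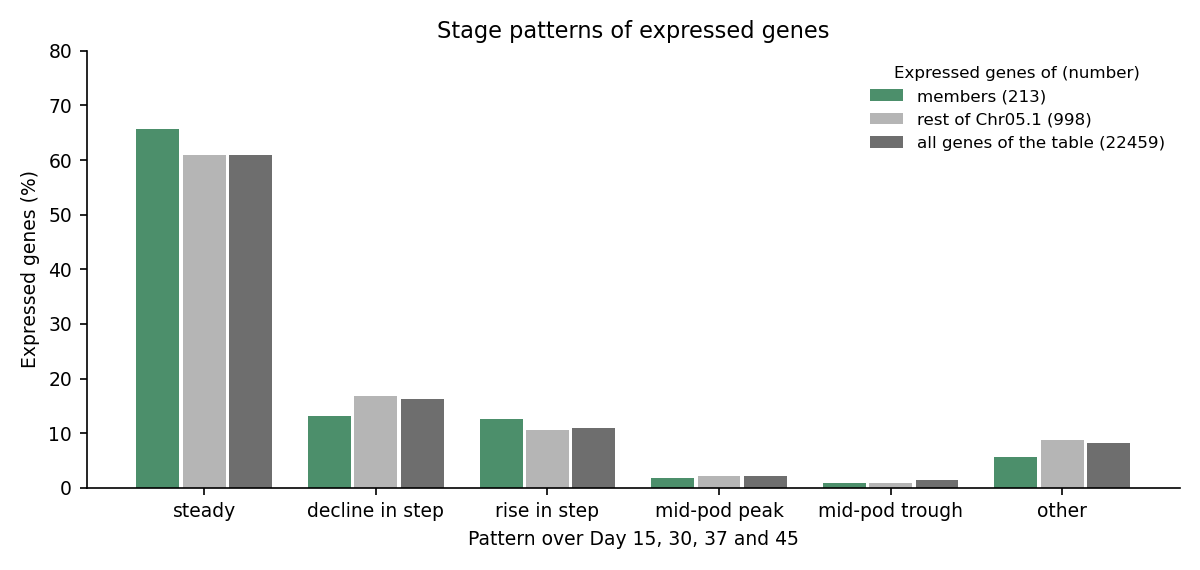
Percent of expressed genes in each course over the 4 stages, for the members (green, 213 genes), the rest of Chr05.1 (light grey, 998) and all genes of the table (dark grey, 22459). Steady is the most frequent course in all 3 sets, at 65.7% of the members and 60.9% of all genes.

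The largest number of calls fell in the first step. At Day 30 compared with Day 15, 19 members were higher (8.92%, background 9.47%) and 25 were lower (11.7%, background 13.7%). At Day 37 compared with Day 30, 6 were higher (background 3.47%) and 5 lower (background 3.69%), and 4 of these rises and all 5 declines were between a listed 0 and a listed 1. At Day 45 compared with Day 37, 9 were higher (background 3.53%), of which 7 only reached a listed 1, and 7 were lower (background 5.13%). The first step also covers 15 days, against 7 and 8 days for the later steps. Of the 31 higher members, 16 had already reached 2-fold at Day 30 (51.6%, against 55.4% of all higher genes), and of the 32 lower ones 22 had (68.8%, against 64.9%). Those 22 are 10.3% of the expressed members, against a background of 12.6%.

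The course of the 4 pigment genes of the window was not uniform. PtMYB113a (Chr05.1, 5000035 to 5001407) stood at 30, 11, 5 and 4 FPKM at Day 15, 30, 37 and 45 and declined in step, with a log2 change of -2.63. PtMYB113b had 9, 6, 5 and 6 FPKM and was not called. Of the acyltransferase genes near the start of the window, Pt5MAT1 was higher at Day 45, with 9, 17, 21 and 23 FPKM, and Pt5MAT2 had 22, 51, 47 and 36 FPKM. The decline that neighbours were set beside is therefore that of PtMYB113a alone.

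The nearest genes did not share one course. No gene model lies between PtMYB113a and PtMYB113b, which start 62.4 kb apart, and PtMYB113c (Psote05G0036700), the remaining copy of this tandem triplet and a member, starts at 80.8 kb and was listed at 0 in all stages. The copies are similar in sequence, so the division of reads between them is uncertain. Next before PtMYB113a, Psote05G0036400 was at 3, 4, 2 and 1 FPKM and was called lower at exactly 2-fold, a call that was lost within rounding and under quantile normalization (log2 change -0.69). The next ones away, Psote05G0036300 and Psote05G0036200, were steady at 7, 8, 9 and 7 FPKM and at 17, 18, 17 and 18 FPKM. Psote05G0036100, which overlaps Psote05G0036200, had 5, 4, 3 and 3 FPKM, and Psote05G0036000 had 28, 23, 21 and 18 FPKM. These last genes had their highest value at Day 15, as PtMYB113a did, but changed by less than 2-fold.

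On the other side, Psote05G0036800 (Chr05.1, 5088379 to 5094803) declined in step. It stood at 13, 8, 7 and 5 FPKM, a log2 change of -1.22, and was the nearest member to do so beyond the triplet. Psote05G0036900, which holds a MYB domain, had 0, 0, 1 and 2 FPKM. Psote05G0037000, with 81, 93, 97 and 72 FPKM, and Psote05G0037200, with 18, 12, 14 and 13 FPKM, were steady. Of these 11 nearest members, 10 were expressed, 2 were lower, 1 was higher and 7 were neither. In the plot of the nearest genes, levels range between a listed 0 at PtMYB113c and the 215 to 282 FPKM of Psote05G0037100 within a few genes.

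**Figure D3:**
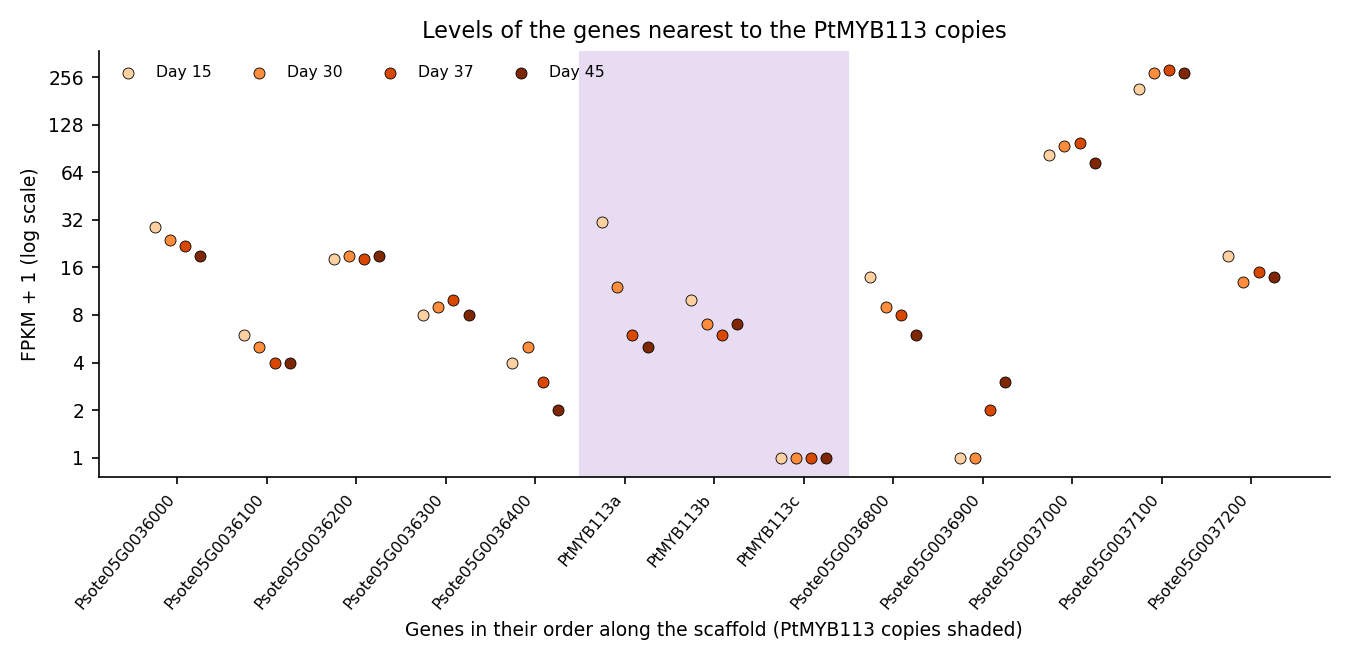
FPKM + 1 on a log scale (points, 1 value per stage, lighter to darker from Day 15 to Day 45) for the 11 nearest members, PtMYB113c included, and for PtMYB113a and PtMYB113b, in their order along the scaffold, with the copies shaded. PtMYB113a falls to 4 FPKM at Day 45, against 30 FPKM at Day 15, while Psote05G0037100 stays between 215 and 282 FPKM.

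Counts by distance gave the same picture for declines. Within 0.25 Mb of PtMYB113a lay 35 members, of which 29 were expressed, 6 were higher, 4 were lower and 3 declined in step (10.3% of those expressed). From 0.25 to 1 Mb, 56 of 73 were expressed, 14 were higher and 10 lower, and 8 declined in step (14.3%). Beyond 1 Mb, 128 of 161 were expressed, 11 were higher and 18 lower, and 17 declined in step (13.3%). Each of these shares was below the 16.3% found over all genes. Higher members, in contrast, were 20 of the 85 expressed within 1 Mb (23.5%) and 11 of the 128 beyond (8.59%), on either side of the background of 14.3%. Of the 20 nearby, 13 were below 5 FPKM at Day 45, and of the higher members at or above that level 7 lay within 1 Mb and 10 beyond.

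**Figure D4:**
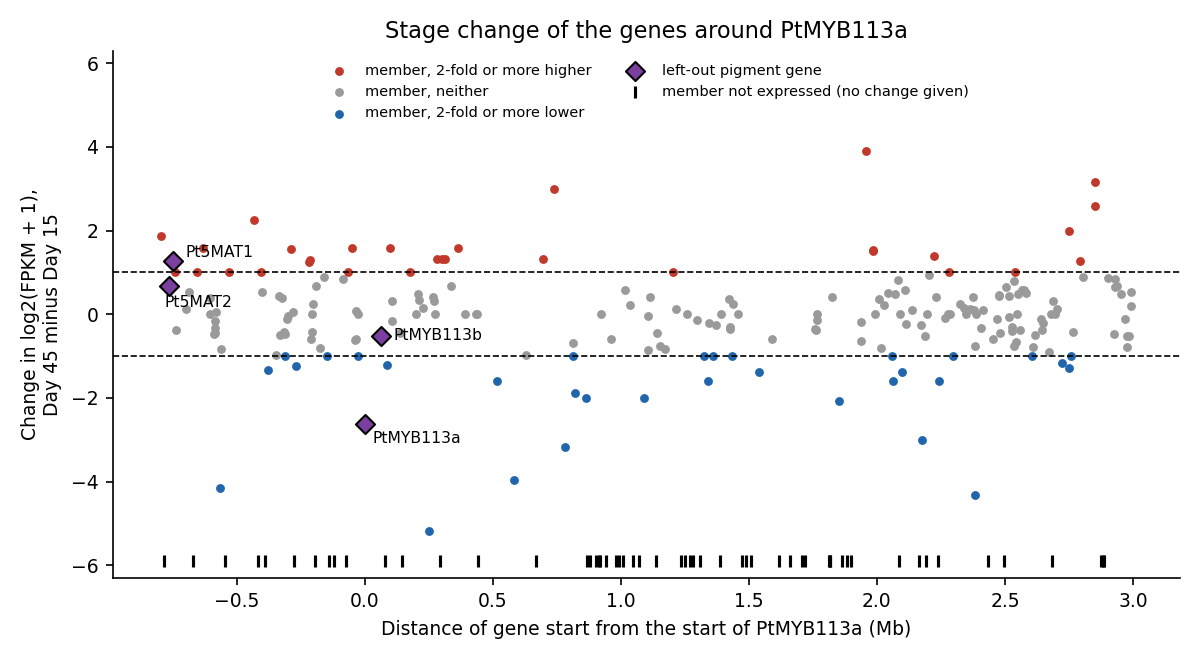
Change in log2(FPKM + 1), Day 45 minus Day 15, of each expressed member by distance from the start of PtMYB113a (red, higher; blue, lower; grey, neither; dashed lines at 1 and -1), with the 4 named pigment genes as diamonds and members not expressed as ticks at the bottom. Red and blue points lie on both sides of PtMYB113a, whose own change is -2.63, and the lowest point, at -5.19, lies 0.25 Mb beyond it.

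Falls as large as that of PtMYB113a were about as rare among the members as over all genes. A log2 change of -2.63 or lower was found in 6 of the 213 expressed members (2.82%), against 711 of all expressed genes (3.17%). The steepest was Psote05G0037900 (Chr05.1, 5249071 to 5251318), which starts 249 kb beyond PtMYB113a and stood at 474, 134, 80 and 12 FPKM. Its value at Day 45 was 39.5-fold lower than at Day 15, with a log2 change of -5.19. It was the most abundant member at Day 15, and it fell at every step.

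The others fell mainly in the first step. Psote05G0051200 (Chr05.1, 7382538 to 7383098) was at 39, 2, 2 and 1 FPKM, and Psote05G0039400 (Chr05.1, 5581279 to 5582720) at 46, 4, 2 and 2 FPKM. Psote05G0032000 (Chr05.1, 4435417 to 4436080), before PtMYB113a, had 88, 11, 13 and 4 FPKM, so its decline was broken by a small rise. Psote05G0049200 was at 23, 5, 5 and 2 FPKM, and Psote05G0039900 had 8, 0, 0 and 0 FPKM. These genes start between -0.565 and 2.38 Mb from PtMYB113a, where a negative distance lies before it, and they are given by identifier with no role.

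At 5 FPKM or more at Day 15 stood 155 members, and 18 of them (11.6%, against 13.9% of all such genes) declined in step. Besides those above, the abundant ones were Psote05G0055200 (Chr05.1, 7749204 to 7751096), with 413, 264, 241 and 169 FPKM, Psote05G0046600, with 141, 44, 38 and 33 FPKM, and Psote05G0045200, with 51, 27, 22 and 19 FPKM. Psote05G0034200 had 18, 8, 7 and 7 FPKM, Psote05G0048600 had 12, 8, 6 and 4 FPKM and Psote05G0040200 had 10, 9, 6 and 2 FPKM. Their timing thus ranged from a drop before Day 30 to one after Day 37. The remaining 6 stood at 5 to 9 FPKM at Day 15 and at 1 to 3 FPKM at Day 45, where rounding alone can move a ratio considerably.

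The course of the 18 was compared with that of PtMYB113a by the share of the Day 15 value left at each later stage. PtMYB113a kept 36.7% at Day 30, 16.7% at Day 37 and 13.3% at Day 45. The 18 members kept a median of 42.2% at Day 30 (lowest 0%, highest 90.0%), 40.0% at Day 37 (0 to 62.5%) and 21.7% at Day 45 (0 to 40.9%). They were chosen for a decline in step, so that their shares fall follows from the choice, and only the timing is described. For comparison, the only DFR and the only ANS gene on the list with a decline in step were taken, so that they decline by choice. The other copies differed, as some were higher at Day 45 and others were not called or not expressed. Another DFR gene, Psote05G0011800, was lower, with 9, 5, 6 and 3 FPKM. The DFR gene, Psote08G0200700, kept 57.3, 36.6 and 20.1%, and the ANS gene, Psote01G0255900, kept 85.0, 41.4 and 19.9%. Among the members, Psote05G0037900 was near PtMYB113a at Day 30 and Day 37, with 28.3% and 16.9%, and far lower at Day 45, with 2.53%. The plot of stage courses shows PtMYB113a beside the 18 members, all of which decline by choice.

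**Figure D5:**
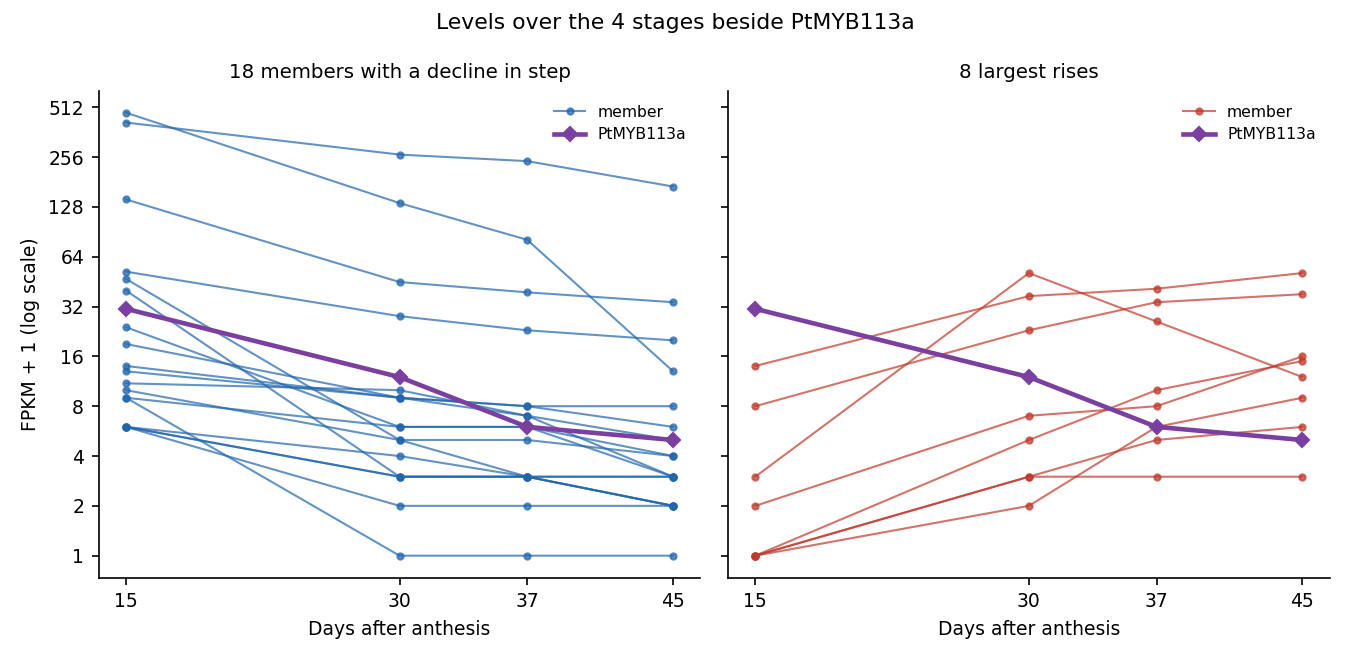
FPKM + 1 on a log scale by days after anthesis, for the 18 members with a decline in step and 5 FPKM or more at Day 15 (left, blue) and the 8 largest rises (right, red), 1 line per gene, with PtMYB113a in purple on both sides. The declining members start between 5 and 474 FPKM, and PtMYB113a starts at 30 FPKM.

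Other members of the same window rose. Psote05G0047200 (Chr05.1, 6957601 to 6965831) had a listed 0 at Day 15, then 4, 9 and 14 FPKM, the largest rise among the members on the log2(FPKM + 1) scale (3.91). Psote05G0039800 was at 1, 6, 7 and 15 FPKM, and Psote05G0032400 (Chr05.1, 4566755 to 4575650) at 7, 22, 33 and 37 FPKM, a log2 change of 2.25. Psote05G0055300 had a mid-pod peak, with 2, 50, 25 and 11 FPKM. It starts 709 bp after the end of Psote05G0055200, the abundant gene that declined, so these neighbours went opposite ways. Psote05G0031200, listed at 0 at Day 15 and at 2 FPKM in each later stage, rests on values near the rounding limit, as do the mid-pod peak of Psote05G0043100, at 1 FPKM at Day 30 and listed at 0 otherwise, and a fall to a listed 0 of Psote05G0040300, which had 3, 1, 0 and 0 FPKM. Psote05G0047500 peaked at 9 FPKM at Day 30, with 3, 6 and 3 FPKM at Day 15, 37 and 45.

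Adjacent genes moved the same way about as often as elsewhere. Of 177 pairs of adjacent expressed members, 15 were called in the same direction (8.47%), against 9.48% of all such pairs in the table. Opposite directions were called in 5 pairs (2.82%, against 4.25%). In 9 pairs both genes were higher (5.08%, against 3.66%) and in 6 both were lower (3.39%, against 5.82%). Without pairs whose gene models overlap, the share was 9.03% (14 of 155), against 8.88%. Both genes reached 5 FPKM at Day 15 or Day 45 in 6 of the 15 pairs, and in 5 of these both calls were kept within rounding.

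The only declining pair among those 5 was Psote05G0039300, with 5, 2, 2 and 1 FPKM, and Psote05G0039400, with 46, 4, 2 and 2 FPKM, 58.9 kb apart. The others rose, among them Psote05G0047300 and Psote05G0047400, which are 773 bp apart and rose side by side. Psote05G0047300 stood at 29, 73, 84 and 85 FPKM, and Psote05G0047400 at 31, 69, 82 and 92 FPKM. The preceding gene, Psote05G0047200, rose too. Psote05G0055800, with a listed 0 at Day 15 and 2, 4 and 5 FPKM later, lies 34 bp before Psote05G0055900, with a listed 0 and 1, 5 and 8 FPKM. Psote05G0034400 lies inside Psote05G0034300, and both were highest at Day 45, with 18, 15, 24 and 46 FPKM and with 59, 46, 68 and 141 FPKM. Because the libraries carry no strand information, reads in the overlap of such gene models cannot be told apart. Overlapping models numbered 49 in the window (18.2%, against 16.9% of all genes), and 5 of them were called. Calls among all overlapping models of the table were not counted.

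A homologue or domain that names a role was available for 9 members, from the supplementary tables of the study. Of these, 7 were expressed, 4 were higher at Day 45 (background 14.3%) and 0 were lower (background 19.4%). Only the call of Psote05G0030200 among the 4 was kept within rounding. The list was put together with stage values known and is no independent evidence of direction. The clearest rise was that of Psote05G0030200 (Chr05.1, 4206056 to 4207393), matched to PMAT2, which in Arabidopsis adds malonyl groups to phenolic glucosides. This member is itself on the list of structural pigment genes, among the anthocyanin glucosyl- and acyltransferases. It stood at 13, 36, 40 and 50 FPKM, a log2 change of 1.87, and lies close to the acyltransferase genes Pt5MAT1, which was also higher, and Pt5MAT2. All 3 had their lowest value at Day 15.

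The regulatory genes among these 9 differed widely in level. Psote05G0039700, matched to MYB30, a regulator of defence-related cell death in Arabidopsis, was at 1, 2, 3 and 4 FPKM. Psote05G0037400, matched to a transcription factor of chickpea, was listed at 0 until Day 37 and at 1 FPKM at Day 45. Psote05G0035200, matched to WRKY3, a transcription factor of pathogen responses in Arabidopsis, stood at 21, 33, 36 and 40 FPKM (log2 change 0.90). Psote05G0035600 (Chr05.1, 4914045 to 4922835), matched to KIN10, the catalytic subunit of the energy-sensing kinase SnRK1, had 60, 88, 89 and 108 FPKM (log2 change 0.84). Both stayed below 2-fold and had their highest value at Day 45. Psote05G0050700, matched to the mitochondrial membrane protein LETM1, had 25, 26, 25 and 28 FPKM, and Psote05G0034900, matched to the O-methyltransferase OMT1, was listed at 0 in all stages.

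Outside the window, the pigment pathway moved in both directions as well. There were 74 listed structural genes of flavonoid and anthocyanin synthesis that are neither members nor among the 4 named pigment genes, and 69 were expressed. Of these, 31 were higher at Day 45 (background 14.3%), 19 were lower (background 19.4%) and 16 declined in step (background 16.3%). Of the 9 expressed DFR and ANS genes, 4 were higher and 3 lower. Of the 11 listed MYB, bHLH and WD40 genes, which include the PtMYB113 copies, 10 were expressed. Among these, 3 were higher and 5 were lower, all 5 with a decline in step. Calls were thus more frequent on these lists than over all genes, in both directions. Some rest on small numbers, such as the DFR gene Psote06G0010200 with 0, 0, 0 and 1 FPKM and PtMYB114 with 1, 1, 0 and 0 FPKM. These lists also come from tables of the study in which stage values had been seen.

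The methods of the study name pod and seed tissue. As markers of seed tissue, 25 globulin and legumin genes were examined, of which 18 were expressed in the pod libraries. Their summed levels were 324, 225, 288 and 362 FPKM at Day 15, 30, 37 and 45, a sum over opposite courses. Psote03G0078700 fell from 148 FPKM at Day 15 to 12 FPKM at Day 45, while Psote05G0226200 rose from 31 to 114 FPKM. The markers went both ways, with 7 higher (background 14.3%) and 8 lower (background 19.4%) at Day 45, so they were called more often than genes at large. The part of seed tissue in the changes of the members was not tested. Sequence differences between FP15 and the Ma3 assembly were not tested either.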

How the data were processed

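Pods of FP15 were analysed at 4 stages with 3 libraries each, grouped by the submitters' labels. Per the submitters' processing notes, the authors used fastp, HISAT2 2.0.5 and featureCounts 1.5.0-p3, and they deposited a single FPKM value for each gene at each stage. The values the authors deposited are whole numbers, and they were therefore handled here as a score, rounded FPKM. The study lists reads for each library, which were not used here, and no source used here says how the 3 libraries of a stage were merged. The precision is limited by rounding (0.5 FPKM either way) and by an unknown spread between plants.

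Members were taken by position, and distances are between gene starts. Genes at 1 FPKM or more in a stage were analysed on log2(FPKM + 1) and called at a difference of 1. For whole numbers, a pseudocount of 0.1 FPKM gives the same calls by construction. No test was possible with 1 value per stage, and the main counts are given beside those over all genes. The members and lists were chosen with earlier results of these data known. A rule chose the genes to be singled out, 52 in all. It took the members with a homologue in the lists, the 5 genes on either side of the PtMYB113 triplet and the 5 highest means. It also took the 8 largest rises and 8 largest falls (ties taken by position) and the 3 largest mid-pod peaks. Added to these were the members with a decline in step at 5 FPKM or more at Day 15 and the 4 named pigment genes. Of the declining ones, 6 are given as a group in the text, and not each by identifier. Psote05G0034300, Psote05G0034400, Psote05G0047300, Psote05G0047400 and the runs of members listed at 0 lie outside this rule and were chosen after their values were seen. The scripts were tested on simulated data. The tools were numpy 2.4.6 and pandas 2.3.3 under Python 3.11.15, with matplotlib 3.10.9 for the plots. Alternatives covered the filter, the pseudocount, 3 scalings, the threshold, rounding and distance. The reference gene table supplied matched 0 of the gene identifiers and was not used here, and no sequences are shown.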

Additional observations from a re-analysis of the deposited data

How the results depend on the processing

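No paired analysis was possible because the table holds 1 value per gene and stage, although the labels number the replicates alike in each stage, and for the same reason no replicate could be left out. Of 89 alternative values, 58 stayed within 1.5 times the count, the interval of the share or 0.1 of the median given in the report. The 58 include the values with a pseudocount of 0.1 FPKM and those with no filter on low values. Both settings give the same values by construction, so the tally overstates how stable the results are. No setting turned the median change, which stayed within 0.1 of 0 under the settings run. The share expressed was 60.6% at 5 FPKM or more in a stage and 69.1% at 1 FPKM in every stage. With the 5 FPKM filter, 18 members were higher (11.0%, background 13.4%), 20 lower (12.3%, background 15.6%) and 18 declined in step (11.0%, background 12.7%). With a 4-fold threshold, 6 were higher (2.82%, background 4.54%), 9 lower (4.23%, background 6.45%) and 8 declined in step (3.76%, background 5.87%). Within rounding, 15 were higher (7.04%, background 9.32%), 19 lower (8.92%, background 11.4%) and 18 declined in step (8.45%, background 9.72%). Within 1 Mb of PtMYB113a, 20 were higher, 14 lower and 11 declined in step, fewer by construction. Of the 85 expressed there, these are 23.5, 16.5 and 12.9%, against 14.3, 19.4 and 16.3% of all expressed genes. Without genes exactly at 2-fold, a setting added after seeing the data, 21 were lower (9.86%, background 14.1%). Quantile normalization gave 10 with a decline in step (background 6.35%), as equal listed values become unequal. It gave 23 when steps were read from the listed values (background 12.4%), also added later.

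The steps between stages, the rises in step and the pairs were recomputed for the members alone, under settings added after seeing the data. No share over all genes stands beside these counts, so whether the table shifted alike is not known. At Day 30 against Day 15, 11 members were higher with each stage at the same sum, 12 were lower under quantile normalization and 15 were lower with the 5 FPKM filter. At Day 37 against Day 30, 1 was higher and 1 lower at the same sum, 1 was higher at the same upper quartile, and 2 were higher and 0 lower with the filter. At Day 45 against Day 37, 4 were lower at the same sum, 1 was higher and 4 lower at the same upper quartile, and 2 were higher with the filter. A rise in step was found in 15 members at the same upper quartile and 14 with the filter, and 6 adjacent pairs were called the same way with the filter. For the 52 genes chosen by rule, 208 values came from the scalings and from a listed 0 set to 0.5 FPKM. Of these, 205 kept their call, 3 lost it and 0 reversed. The 3 were Psote05G0036400 and Psote05G0055400 under quantile normalization and Psote05G0037400 at the same upper quartile. Within rounding, added after seeing the data, 7 of the 34 called genes lost their call: Psote05G0031200, Psote05G0036400, Psote05G0036900, Psote05G0037400, Psote05G0039700, Psote05G0055100 and Psote05G0055400.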

Other observations

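Besides the genes chosen by rule, several moderately to highly expressed members had courses of their own, and they are given here by identifier after their values had been seen. Psote05G0033900 rose in step, with 26, 59, 66 and 79 FPKM at Day 15, 30, 37 and 45, and Psote05G0049700 did so at nearly the same levels, with 29, 62, 69 and 78 FPKM. Psote05G0055600 rose too, at 14, 27, 32 and 35 FPKM. In each of them the rise to Day 30 was the largest single step. Psote05G0033000, by contrast, had 114, 109, 88 and 58 FPKM, with its largest step after Day 37, and remained just inside 2-fold (log2 change -0.96). Psote05G0048300 had 66 FPKM at Day 15 and 123, 131 and 118 FPKM later, also inside 2-fold at Day 45 (log2 change 0.83).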
